A study of Mus musculus with 10 samples.

Results

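The maturation-stage enamel genes Klk4, Odam, Amtn, Odaph, Slc24a4 and Wdr72 were read by gene symbol from tables of mouse enamel organ RNA, as a measure of how much of the maturation stage each tissue capture held. Of these 6 genes, 5 were analysed: 4 of the 16292 genes listed for ameloblasts (Klk4, Odam, Amtn and Wdr72) and 5 of the 16638 genes listed for the stratum intermedium, where Slc24a4 was added. RNA levels of Odaph, and of Slc24a4 in ameloblasts, were not analysed here; the promoter of Odaph is described below with the others. The rule that selects them uses gene symbols and no measured value.

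The dataset held 10 RNA-seq libraries made from hemi-mandibles of claudin-10 knockout (KO) and wild-type (WT) mice. Ameloblasts, the cells that deposit and then mature enamel, and the stratum intermedium, the cell layer behind them, were cut separately from frozen sections by laser, and each layer had 3 KO and 2 WT libraries. Library names carried the prefixes KO1, KO3, KO9, WT10 and WT5 in both layers, which were taken as 5 mice although the labels do not say so. They also carried a library group number: 1 for KO3 and WT5, 2 for KO9 and WT10, and 3 for KO1. The labels state no age, sex, strain or position along the jaw, and do not say how, or in which cells, claudin-10 was deleted. By RNA of Xist and the Y-linked gene Ddx3y, KO1 and KO3 read as female and KO9, WT10 and WT5 as male in both layers. Genotype and sex therefore cannot be fully told apart. Nothing states that the libraries of a group came from separate mice, so p-values describe the spread among libraries, which could be technical.

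Enamel forms in a secretory stage, in which ameloblasts lay down a soft matrix of amelogenin (Amelx), ameloblastin (Ambn) and enamelin (Enam) trimmed by the protease Mmp20, and then in a maturation stage, in which that matrix is removed and replaced by mineral. At maturation, the serine protease Klk4 degrades the remaining matrix, and Odam and amelotin (Amtn) are secreted into the specialised basal lamina that holds ameloblasts to enamel. Slc24a4 is a potassium-dependent sodium-calcium exchanger that moves calcium out of maturation ameloblasts, Wdr72 is needed for their vesicle traffic, and Odaph encodes a secreted phosphoprotein of the same stage. In the continuously growing mouse incisor the stages lie one after the other along the tooth, and Odam and Amtn are also made in the junctional epithelium of the gum.

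Cldn10 was listed at 280.1, 407.8 and 148.7 normalized counts in the KO1, KO3 and KO9 ameloblast libraries, against 600.1 and 751.8 in WT10 and WT5. In the stratum intermedium it stood at 1003, 387.1 and 464.7 in the KO libraries, against 7257 and 2365 in the WT libraries. Every KO library was thus below every WT library of its layer, a pattern of 9.26% of all ameloblast and 7.44% of all stratum intermedium genes. The log2 difference, -1.38 (SE 0.46) in ameloblasts and -2.87 (SE 0.56) in the stratum intermedium, did not pass in limma (adjusted p = 0.989 and 0.9999). Its unadjusted limma p was 0.0208 and 0.0012, where 3.07% and 2.06% of all genes had one under 0.05. The exact permutation p was 0.2 and 0.1, and 0.1 is the smallest value this test can give. The part of Cldn10 that was deleted is unknown, so reads outside it can remain. Of the values listed, 8 ameloblast markers, Klk4, Amtn and Odam among them, took 2.22% to 9.16% in KO and 2.67% to 4.75% in WT ameloblasts, and 0.129% to 0.796% in KO and 0.507% to 0.95% in WT stratum intermedium. The 6 stratum intermedium markers took 0.118% to 0.184% of KO and 0.0696% to 0.0879% of WT ameloblast libraries, and 0.16% to 0.402% of KO and 0.142% to 0.373% of WT stratum intermedium libraries. Over all 10 libraries, odontoblast markers took 1% to 2.61%, osteoblast markers 0.858% to 2.83%, osteoclast markers 0.101% to 0.913%, red blood cell markers 0.0814% to 1.28%, and skeletal muscle markers 0.0114% to 0.492%. Both captures therefore held RNA of other tissues beside the named layer. Between 33 and 854 genes were listed at 0 per library.

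Odam and Amtn lie beside secretory matrix genes on chromosome 5. In GRCm38, Odam (ENSMUSG00000009580) spans 87885029 to 87894174, Amtn (ENSMUSG00000029282) spans 88376108 to 88385916, Ambn spans 88455991 to 88468531 and Enam spans 88487975 to 88506049, all on the plus strand. Klk4 (ENSMUSG00000006948) lies on chromosome 7 from 43881160 to 43885804, Wdr72 (ENSMUSG00000044976) on chromosome 9 from 74110356 to 74283308, and Slc24a4 (ENSMUSG00000041771) on chromosome 12 from 102128733 to 102267091, each also on the plus strand. None of these 5 maturation genes shared exon sequence with another annotated gene.

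The promoter windows of these 4 neighbours and of Klk4 are shown because Odam and Amtn, of the maturation stage, held the same short element near the start site as their secretory-stage neighbours, whose levels differed widely from theirs in these libraries. The windows run from 250 bases before to 50 bases after the RefSeq start in GRCm38.p6, on the plus strand, at chr5:87884760-87885059 for Odam, chr5:88375858-88376157 for Amtn, chr5:88455741-88456040 for Ambn, chr5:88487725-88488024 for Enam and chr7:43880910-43881209 for Klk4. Capitals mark the element TGATTGG.
Odam: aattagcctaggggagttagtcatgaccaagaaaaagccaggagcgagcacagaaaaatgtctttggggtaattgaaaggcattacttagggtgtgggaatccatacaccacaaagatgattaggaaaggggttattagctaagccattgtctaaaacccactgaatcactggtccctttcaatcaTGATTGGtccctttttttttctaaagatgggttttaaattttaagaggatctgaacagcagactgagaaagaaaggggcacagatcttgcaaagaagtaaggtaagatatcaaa
Amtn: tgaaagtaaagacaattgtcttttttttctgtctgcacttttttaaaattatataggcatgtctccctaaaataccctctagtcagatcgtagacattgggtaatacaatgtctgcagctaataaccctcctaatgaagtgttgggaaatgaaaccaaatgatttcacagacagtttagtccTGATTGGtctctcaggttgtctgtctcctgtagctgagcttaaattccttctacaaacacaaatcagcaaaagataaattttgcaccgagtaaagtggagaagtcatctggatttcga
Ambn: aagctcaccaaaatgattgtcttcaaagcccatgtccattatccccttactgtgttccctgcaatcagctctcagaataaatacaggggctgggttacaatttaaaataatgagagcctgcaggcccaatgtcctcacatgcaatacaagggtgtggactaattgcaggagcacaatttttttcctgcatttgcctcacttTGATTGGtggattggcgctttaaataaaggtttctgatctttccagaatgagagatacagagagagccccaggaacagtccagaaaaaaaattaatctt
Enam: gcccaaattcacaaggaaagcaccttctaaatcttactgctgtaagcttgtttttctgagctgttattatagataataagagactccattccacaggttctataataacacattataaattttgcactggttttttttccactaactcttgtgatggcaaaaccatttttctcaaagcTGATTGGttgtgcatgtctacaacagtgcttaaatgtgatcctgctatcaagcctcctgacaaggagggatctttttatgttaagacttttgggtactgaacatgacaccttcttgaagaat
Klk4: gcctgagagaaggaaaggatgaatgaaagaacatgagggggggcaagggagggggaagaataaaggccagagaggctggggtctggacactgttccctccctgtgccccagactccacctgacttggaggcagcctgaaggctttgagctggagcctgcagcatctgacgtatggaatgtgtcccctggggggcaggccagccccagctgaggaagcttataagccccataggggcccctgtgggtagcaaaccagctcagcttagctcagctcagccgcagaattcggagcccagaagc

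TGATTGG, which holds the reverse complement of the CCAAT core, was chosen after the sequences had been read. Counted from the start site, it began at position -64 in Odam, -68 in Amtn, -49 in Ambn, -72 in Enam and, on the X chromosome, -60 in Amelx. Searched on both strands (as TGATTGG or CCAATCA), it was found in 7.82% of 32851 RefSeq promoter windows of the same length. The shorter CCAAT (or ATTGG), which overlaps it, was in 37.4% of windows, in Slc24a4 among the maturation genes outside the cluster but not in Klk4 or Odaph. TGTGGT (or ACCACA), the core bound by Runx factors, was in 16.8% of windows, at -143 in Odam and at -106 and -88 in Odaph. Of the 6 maturation genes, 5 had a window in the table. These are matches of letters, and no binding was measured.

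**Figure D1:**
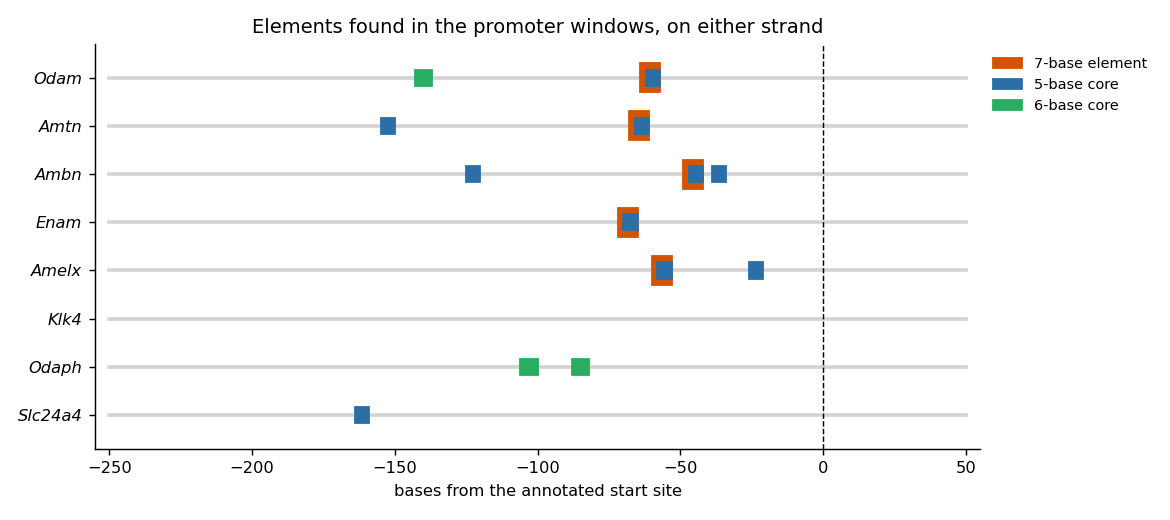
Position of the 3 elements in promoter windows, in bases from the annotated start site (horizontal axis), 1 gene per line: orange, TGATTGG; blue, CCAAT; green, TGTGGT, each on either strand. The orange element lies between -72 and -43 in Odam, Amtn, Ambn, Enam and Amelx and in none of the other 3 windows.

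Odam was the most abundant of the maturation genes and the one whose level set libraries furthest apart for its abundance. In ameloblasts it was listed at 1159, 1057 and 88.2 normalized counts in KO1, KO3 and KO9, against 128 and 1004 in WT10 and WT5. Each genotype thus held high and low libraries, and the 2 low ones, KO9 and WT10, were those of library group 2. In the stratum intermedium Odam stood at 3987, 1015 and 897.1 in KO1, KO3 and KO9, against 2649 and 843.7 in WT10 and WT5. There KO1 and WT10 were the high libraries, so the order differed from that in ameloblasts. The standard deviation of its log2 value over the 5 libraries of a layer was 1.83 in ameloblasts and 1.03 in the stratum intermedium. That exceeded 99.5% of the 4954 ameloblast genes within 2-fold of its mean level, whose median was 0.36, and 98.7% of 3564 such genes in the stratum intermedium, whose median was 0.26.

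Amtn, the other basal lamina gene, was lower than Odam in 10 of 10 libraries, also per kb of exon. It was listed at 376.6, 102.9 and 65.0 in the KO1, KO3 and KO9 ameloblast libraries, against 78.2 and 363.7 in WT10 and WT5. KO9 and WT10 were again the lowest, with KO3 close above them. Stratum intermedium libraries held 291.8, 154.1 and 66.0 in KO1, KO3 and KO9, against 99.1 and 47.0 in WT10 and WT5. KO1 and KO3 exceeded both WT libraries there, and KO9 lay between the WT values.

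Klk4, whose product clears the matrix at maturation, was low in every library. It was listed at 79.0, 52.8 and 0 in the KO1, KO3 and KO9 ameloblast libraries, against 11.3 and 43.7 in WT10 and WT5. Stratum intermedium libraries held 46.0, 16.3 and 1.03 in KO1, KO3 and KO9, against 41.6 and 47.1 in WT10 and WT5. Both libraries of prefix KO9 thus held the lowest Klk4 of their layer. Depth in reads is unknown, so a value of 0 does not show that the gene was silent, and each table lists only genes that reach 10 in 3 or more of its libraries.

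Wdr72 and Slc24a4, the trafficking and calcium exchange genes, did not exceed 59.8 normalized counts in any library. Wdr72 was listed at 19.9, 17.8 and 0 in the KO1, KO3 and KO9 ameloblast libraries, against 23.6 and 39.1 in WT10 and WT5. Stratum intermedium values were 0, 23.0 and 41.7 in KO1, KO3 and KO9, against 27.6 and 31.7 in WT10 and WT5. The library with the 0 was KO9 in ameloblasts and KO1 in the stratum intermedium, and those libraries had 420 and 633 genes at 0. Slc24a4, in the stratum intermedium, was listed at 0, 11.5 and 31.8 in KO1, KO3 and KO9, against 59.8 and 12.7 in WT10 and WT5, so the genotypes overlapped.

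**Figure D2:**
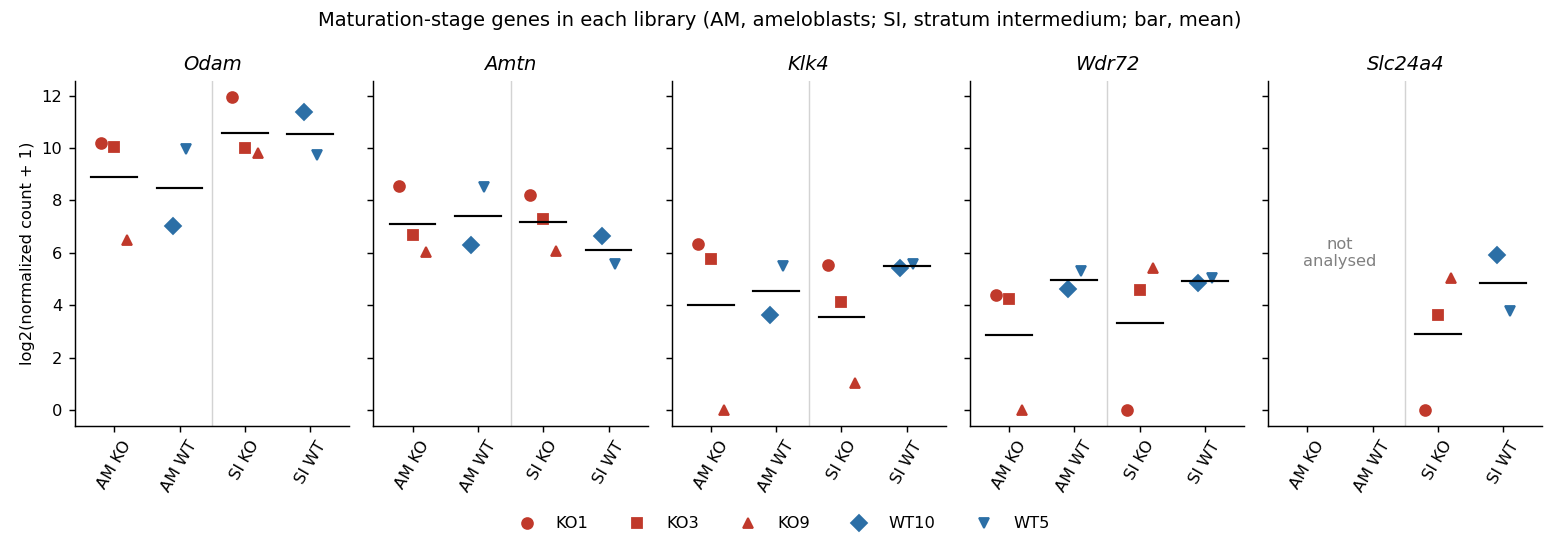
Log2(normalized count + 1) of each maturation-stage gene (vertical axis) in ameloblast (AM) and stratum intermedium (SI) libraries, KO left of WT in each layer, with 1 symbol per library prefix and a bar at the mean. Odam lies highest in both layers, and KO9 and WT10 are the 2 lowest ameloblast libraries for Odam, Amtn and Klk4.

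Set per kilobase of exon, so that genes of different length can be compared, the order was Odam, Amtn, Klk4 and Wdr72 in ameloblasts. Mean levels over the 5 ameloblast libraries were 499.3 normalized counts per kb for Odam, 193 for Amtn, 29.9 for Klk4 and 2.68 for Wdr72. Odam exceeded Amtn in 5 of 5 ameloblast libraries, although in KO9 the levels were 64.1 and 63.6, and the ranges of these neighbours overlapped. The ranges of Amtn and Klk4 did not overlap, and those of Klk4 and Wdr72 did. Ambn and Enam, which lie in the same gene cluster as Odam and Amtn and share the promoter element shown above, averaged 64733 and 23772 normalized counts per kb in the same libraries. Stratum intermedium means were 1365 for Odam, 128.8 for Amtn, 24.3 for Klk4, 5.12 for Slc24a4 and 3.31 for Wdr72. There Odam, Amtn and Klk4 were separated without overlap, whereas the levels of Klk4 and Slc24a4, and of Slc24a4 and Wdr72, overlapped. By mean level per kb, Odam stood above 86.1% of listed ameloblast genes and 94.3% of listed stratum intermedium genes. Amtn stood above 71.1% and 61.2%, Klk4 above 29.8% and 24%, and Wdr72 above 1.1% and 1.46% of the ameloblast and stratum intermedium genes, and Slc24a4 above 3.64% of the stratum intermedium genes.

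Against the secretory matrix, the maturation genes were a small fraction in all ameloblast libraries. Per kb, Odam was 0.0165% to 0.111% of Amelx in the KO and 0.0103% to 0.158% in the WT ameloblast libraries. Amtn was 0.0145% to 0.0216% of Amelx in KO and 0.00844% to 0.0772% in WT, and Klk4 was at most 0.00611% in KO and 0.00759% in WT. The secretory gene Ambn, by the same measure, was 6.89% to 9.18% of Amelx in KO and 6.41% to 7.21% in WT. In the stratum intermedium, where Amelx itself was lower, Odam was 0.996% to 3.87% of Amelx in KO and 0.369% to 2.57% in WT. Amtn was 0.204% to 0.384% there in KO and 0.0276% to 0.13% in WT, and Klk4 was 0.00491% to 0.0313% in KO and 0.0226% to 0.0444% in WT. These ratios are taken within a library, where a single scaling factor for the whole library cancels. Whether factors per gene were also used is unknown, and those would not cancel.

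The 4 genes measured in both layers were set against 9 genes listed as secretory-stage: Amelx, Ambn, Enam, Mmp20, Acp4, Fam20a, Fam83h, Sp6 and Dlx3. This balance is the log2 geometric mean per kb of the 4 minus that of the 9. Each of the 9 weighs alike, although ameloblast means ran from 62.0 per kb for Fam83h to 830477 for Amelx. Fam83h averaged 41.7 per kb in the stratum intermedium. In ameloblasts this balance averaged -7.49 ± 1.69 in KO (SD, n = 3) and -6.55 ± 2.18 in WT (SD, n = 2). It was lowest in KO9, at -9.43, and WT10, at -8.09, and highest in WT5, at -5.01. Klk4 and Wdr72 were listed at 0 in the KO9 ameloblast library, and Wdr72 at 0 in the KO1 stratum intermedium library. Their balances, and the differences between layers built on them, therefore depend on the 1 added to each count before the log. In the stratum intermedium the balance averaged -4.39 ± 0.37 in KO and -4.37 ± 0.63 in WT. The genotype means differed by less than the spread between libraries in each layer. The balance was lower in the ameloblast than in the stratum intermedium library of the same prefix in 5 of 5 cases, with a difference of -1.87 log2 units in KO1, -2.12 in KO3, -5.29 in KO9, -4.17 in WT10 and -0.20 in WT5.

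Because the authors scaled each layer's table on its own, levels of 1 gene in the layers were set side by side, without a test, as ppm of the sum of all values listed for a library. Odam made up 43.1, 45.7 and 3.99 ppm of the KO1, KO3 and KO9 ameloblast libraries and 5.30 and 44.5 of WT10 and WT5. Behind them it made up 181.4, 45.4 and 41.6 ppm of the stratum intermedium libraries of KO1, KO3 and KO9 and 126.1 and 35.1 of WT10 and WT5. The ameloblast share over the stratum intermedium share was 0.24 in KO1, 1.01 in KO3, 0.0957 in KO9, 0.042 in WT10 and 1.27 in WT5. Odam thus took the larger share in ameloblasts in 2 of 5 prefixes, and in KO3 the shares were close to equal. The same ratio for Amtn ran between 0.645 and 1.06 in KO1, KO3, KO9 and WT10 and was 8.26 in WT5. For Amelx it lay between 2.95 and 22.4, above 1 in 5 of 5 prefixes, and Ambn, Enam and Mmp20 were also higher in the ameloblast library of 5 of 5 prefixes. Klk4 and Wdr72 were higher in the ameloblast library of 2 of 5 prefixes each. In bulk captures, fewer cells of a type and less RNA per cell cannot be told apart.

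**Figure D3:**
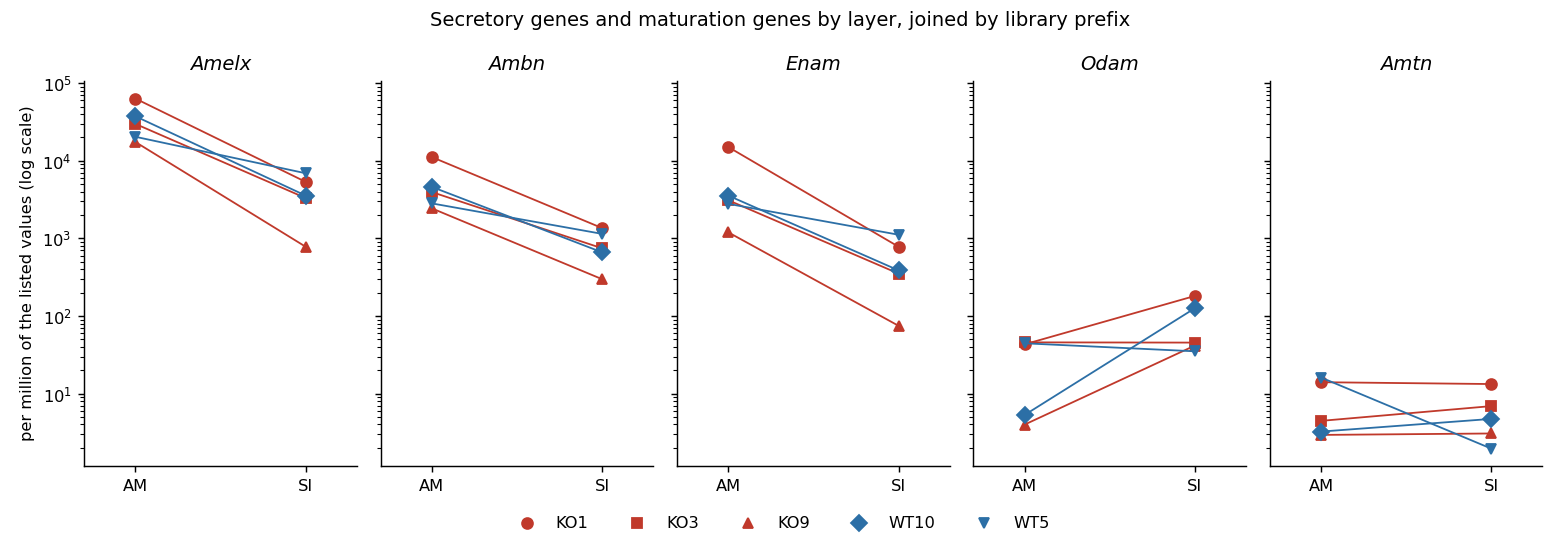
Level in ppm of the listed values (vertical log axis) for 3 secretory genes and for Odam and Amtn, in the ameloblast (AM) and stratum intermedium (SI) library of each prefix, joined by a line, KO in red and WT in blue. Amelx, Ambn and Enam are higher in ameloblasts for 5 of 5 prefixes, and Odam and Amtn for 2 of 5.

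The comparison of KO with WT asked whether loss of claudin-10 went with a different amount of maturation-stage RNA, and none of the maturation genes passed the test in either layer. KO1 and KO3 read as female and every WT library as male, so genotype is partly mixed with sex in this comparison. In ameloblasts the log2 differences of KO minus WT, from limma on log2(normalized count + 1), were 0.41 (SE 1.29) for Odam, -0.31 (SE 0.92) for Amtn, -0.53 (SE 1.98) for Klk4 and -2.10 (SE 1.61) for Wdr72. Each had an adjusted p of at least 0.989 by the Benjamini-Hochberg method over 16212 genes. Called genes numbered 0 of 4 members and 0 of all genes (0%) at an adjusted p under 0.05. At an unadjusted p under 0.05 they numbered 0 of 4 members against 498 of all genes (3.07%). The median difference was -0.42 over the 4 members and 0.04 over all genes tested. The genotypes were fully separated for 1 of 4 members, Wdr72, against 18.4% of all genes; its KO libraries lay below both WT libraries, as did those of 9.26% of all genes, and its exact permutation p was 0.4. No member had every KO above every WT library, a pattern of 9.09% of all genes. The exact permutation p was 0.8 for Odam, 0.8 for Amtn and 1 for Klk4, and this two-sided test cannot go under 0.1 with 3 KO and 2 WT libraries. Leaving out WT10 put Odam at -1.07 and leaving out WT5 at 1.89, and Klk4 stood at 1.48 without KO9, so the sign of either rests on single libraries. Wdr72 kept its sign but stood at -0.66 without KO9.

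Stratum intermedium differences on the log2 scale were 0.04 (SE 0.72) for Odam, 1.06 (SE 0.74) for Amtn, -1.94 (SE 1.48) for Klk4, -1.60 (SE 1.77) for Wdr72 and -1.96 (SE 1.80) for Slc24a4. The adjusted p in limma was 0.9999 for each of the 5, and 0 of 5 members and 0 of 16543 genes (0%) were called. At an unadjusted p under 0.05 the counts were 0 of 5 members and 340 of all genes (2.06%). KO and WT libraries overlapped for every member, against 15.2% of all genes that did not overlap, 7.76% with every KO above every WT library and 7.44% with every KO below. Without WT5, Odam stood at -0.79 and without WT10 at 0.86. The median over the 5 members was -1.60, and that over all genes tested was 0.02. The members with the most negative estimates, Klk4, Wdr72 and Slc24a4, were those with a KO library at or near 0, so their values depend on the pseudocount.

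The KO effect was also compared between layers, by first subtracting, for each prefix, the stratum intermedium log2 value of a gene from its ameloblast value. KO minus WT of that quantity was 0.37 (SE 1.76) for Odam, -1.37 (SE 1.00) for Amtn, 1.41 (SE 0.94) for Klk4 and -0.50 (SE 2.8) for Wdr72. With limma, 0 of 4 members and 0 of 15567 genes (0%) were called, and the smallest adjusted p among members was 0.864. Unadjusted, 0 of 4 members and 747 of all genes (4.8%) had a p under 0.05. KO and WT overlapped for each of the 4, whereas 22.4% of all genes did not overlap, 10.9% with every KO above and 11.5% with every KO below. Standard errors of the members ran from 0.72 to 2.8 log2 units over the 3 comparisons, so a 2-fold change in these genes was not detectable with these libraries.

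**Figure D4:**
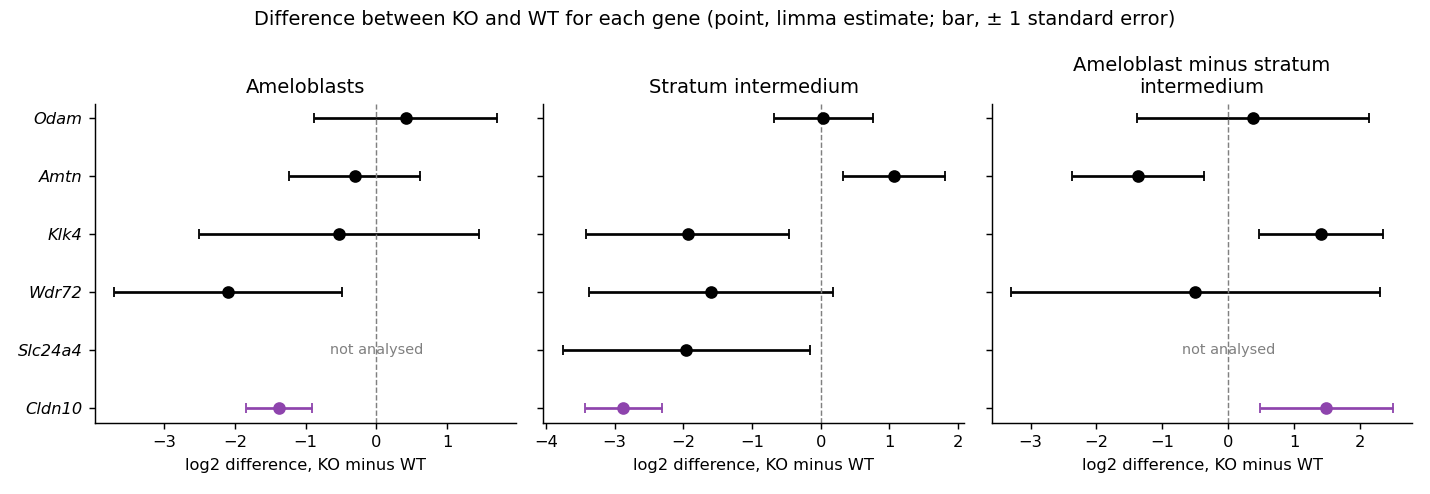
Log2 difference of KO minus WT (horizontal axis) for each maturation-stage gene and for Cldn10 (purple), in ameloblasts, in the stratum intermedium and as the difference between layers; points are limma estimates and bars 1 standard error each way. The estimates of Odam lie at 0.41 and 0.04 in the 2 layers, and no maturation gene passed an adjusted p of 0.05.

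Within library groups that held both genotypes, the direction differed between groups for Odam and Klk4 in ameloblasts and for Odam, Amtn and Wdr72 in the stratum intermedium. In ameloblasts, KO9 minus WT10 (group 2) was -0.53 for Odam, -0.26 for Amtn, -3.62 for Klk4 and -4.62 for Wdr72 on the log2 scale. KO3 minus WT5 (group 1) was 0.07 for Odam, -1.81 for Amtn, 0.27 for Klk4 and -1.09 for Wdr72. Stratum intermedium Odam differed by -1.56 in group 2 and 0.27 in group 1, Amtn by -0.58 in group 2 and 1.69 in group 1, and Wdr72 by 0.58 in group 2 and -0.45 in group 1. Klk4, at -4.39 in group 2 and -1.48 in group 1, and Slc24a4, at -0.89 in group 2 and -0.13 in group 1, were lower in the KO library of both groups of that layer. Group 3 held KO1 alone and gives no such value. The labels do not say what the group number stands for.

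Markers of other epithelia moved with some of these levels, and their part in them was not tested. Of 5 oral and gingival epithelium markers, 4 were measured, and their sum was 0.00185%, 0.0434% and 0.000573% of the KO1, KO3 and KO9 ameloblast libraries, against 0.000787% and 0.143% of WT10 and WT5. The keratin Krt4 was listed at 76.8, 4815 and 1.10 in KO1, KO3 and KO9, against 75.0 and 19049 in WT10 and WT5, and Krt13 was listed at 0 in WT10. KO3 and WT5 thus had both high Odam and high oral keratins, KO9 and WT10 had low values of both, and KO1 had the highest Odam with a low oral keratin sum. Stratum intermedium libraries had an oral sum of 0.00239% to 0.00601% in KO and 0.0055% to 0.0209% in WT, and the one with the highest sum, WT5, had the lowest Odam. Among its genes, Krt6a went the other way there, at 1028, 596.2 and 250.3 normalized counts in KO1, KO3 and KO9, against 1133 and 522.1 in WT10 and WT5, so it was highest in the 2 libraries with the most Odam. The layer's own 6 markers summed to 0.402%, 0.16% and 0.178% in KO1, KO3 and KO9, against 0.373% and 0.142% in WT10 and WT5. The 2 libraries with the most of these markers, KO1 and WT10, were the 2 with the most Odam, and none of the 6 markers was listed at 0.

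**Figure D5:**
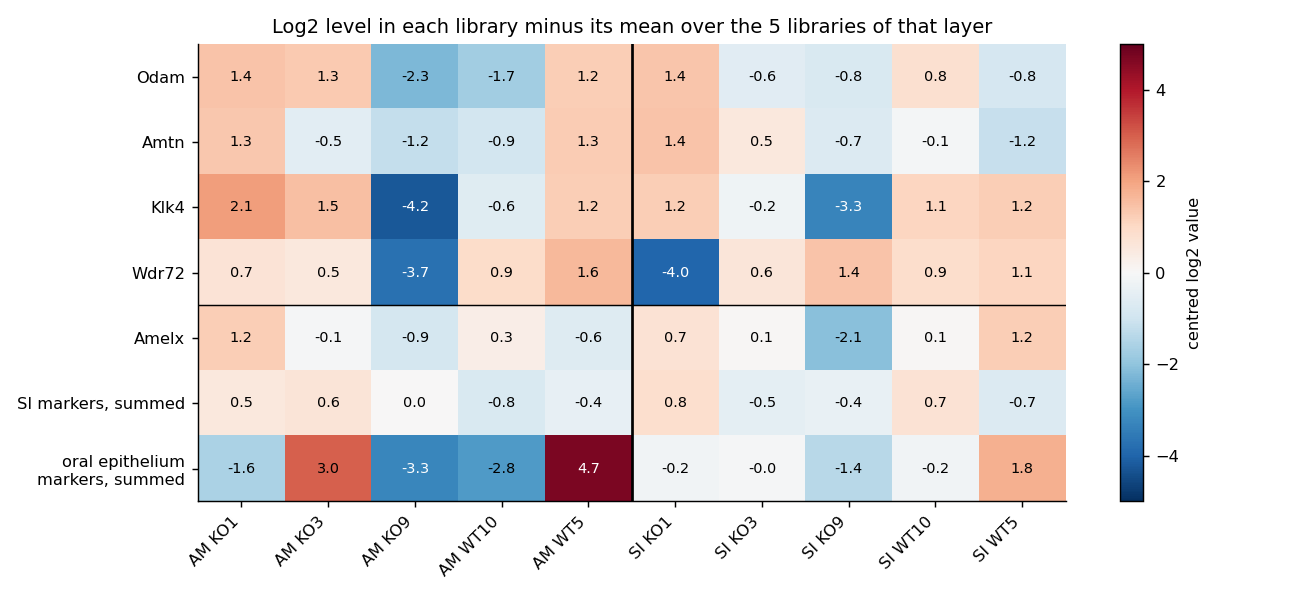
Log2 level in each library minus its mean over the 5 libraries of that layer (colour and printed value), for 4 maturation genes, Amelx, and the summed stratum intermedium (SI) and oral epithelium markers, with ameloblast (AM) libraries on the left and KO before WT. KO9 has the lowest Klk4 in both layers, and the oral marker sum is highest in WT5 in both.

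Profiles of the maturation genes across libraries differed, although values at or near 0 weigh on those of Klk4 and Wdr72. Taking each gene's log2 values centred within its layer over all 10 libraries, the root-mean-square difference was smallest between Odam and Amtn, at 0.86, and was 1.29 between Odam and Klk4 and 1.70 between Amtn and Klk4. Wdr72 stood apart from all 3, at 2.22 from Odam, 2.26 from Amtn and 2.37 from Klk4. Centred values of Wdr72 were -3.71 in KO9 ameloblasts and -3.97 in KO1 stratum intermedium, both from a listed 0. The distances of Wdr72 thus rest largely on values at the floor. Among genes within 2-fold of its mean, 75.4% in ameloblasts and 71.6% in the stratum intermedium had a lower log2 SD. Among 12785 other genes with a mean of at least 50 in both layers, those nearest to the members' mean profile were 6720489N17Rik at 0.29, C1s1 at 0.52, Slc25a23 at 0.52, Rdh12 at 0.52 and Acss2 at 0.52 log2 units. A gene with no change between libraries would stand at 1.17, and the median gene stood at 1.24. Ambn stood at 1.07 and Amelx at 1.14, and 10.3% and 23.1% of genes were nearer than these. The points share libraries and mice, and the distance says nothing of shared function. 6720489N17Rik was listed at 72.8, 74.8 and 3.03 in KO1, KO3 and KO9 ameloblasts, against 18.9 and 98.5 in WT10 and WT5. It was chosen as nearest to a profile that Odam is part of, so its low values in KO9 and WT10 follow from that choice.

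Other genes known for the maturation stage, mostly ion transport and pH genes from a list of 20, did not pass either. Of 16 tested in ameloblasts, 14 had a higher and 2 a lower KO mean on the log2 scale (median 0.51), against 8586 higher and 7626 lower of all 16212 genes (median 0.04). In limma 0 passed at an adjusted p under 0.05, and 3 did at an unadjusted p under 0.05, against 3.07% of all genes. Cnnm4, a magnesium transporter needed for enamel mineral, had the smallest p among those higher in KO (log2 1.28, SE 0.23; 3184, 4232 and 3499 normalized counts in KO1, KO3 and KO9, against 1611 and 1367 in WT10 and WT5). The other 2 with an unadjusted p under 0.05, named after their values were seen, were the transporters Slc4a4 (1.63, SE 0.35) and Slc26a7 (0.91, SE 0.37). In the same ameloblast libraries the sum of the 6 stratum intermedium markers was 0.118% to 0.184% in KO and 0.0696% to 0.0879% in WT. None of the 6 (Alpl, Notch1, Heyl, Dsc3, Krt17 and Nectin4) was listed at 0. Alpl is also on the list of 20, so the sum is not independent of that list. It made up 534.1, 685.0 and 529.0 ppm of KO1, KO3 and KO9 ameloblasts, against 278.1 and 549.8 of WT10 and WT5. Per kb, in tables scaled separately, the WT means of Cnnm4, Slc4a4 and Slc26a7 were lower in ameloblasts than in the stratum intermedium. They were 308.2 and 769.4 normalized counts for Cnnm4, 25.8 and 161.2 for Slc4a4, and 67.2 and 199 for Slc26a7. The KO mean of Cnnm4 was higher in ameloblasts, at 753.5 against 593.5 in the stratum intermedium. KO means were lower in ameloblasts for Slc4a4 (76.6 and 114.5) and Slc26a7 (121.5 and 198.2). The part of stratum intermedium RNA in the difference was not tested. Behind the ameloblasts, in the stratum intermedium, 3 of 17 were higher and 14 lower (median -0.14), against 8580 higher and 7963 lower of all 16543 genes (median 0.02). There 0 passed in limma, and 1 had an unadjusted p under 0.05, against 2.06% of all genes. That gene was Itgb6, an integrin of maturation ameloblasts, at 312.9, 407.8 and 439.9 in KO1, KO3 and KO9, against 828.9 and 612.0 in WT10 and WT5 (log2 -0.89, SE 0.31). Per kb, the WT mean of Itgb6 was 234.1 in ameloblasts and 101.3 in the stratum intermedium. Ameloblast markers took 0.129% to 0.796% of KO and 0.507% to 0.95% of WT stratum intermedium libraries. The part of ameloblast RNA in the Itgb6 difference was not tested. The anion exchanger Slc26a6 had the smallest p among the genes of the list that were higher in KO stratum intermedium (0.29, SE 0.41). For the difference between layers, 12 of 16 were positive and 4 negative (median 0.71), against 7845 and 7722 of all genes (median 0.01). In limma 0 passed, and 1 (Cnnm4, named after its values were seen) had an unadjusted p under 0.05, against 4.8% of all genes.

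The 9 secretory-stage genes, the counterpart of the maturation genes, gave 0 calls as well. In ameloblasts 8 of the 9 were higher and 1 lower in KO (median 0.34), and in the stratum intermedium 1 was higher and 8 lower (median -0.65). Of the 4 members in ameloblasts, 1 was higher and 3 lower in KO (median -0.42). The lists were not tested against each other, and their genes share the same 5 libraries. Without KO1, the ameloblast difference was -0.32 for Amelx, -0.26 for Ambn, -0.75 for Enam and 0.11 for Mmp20. Of all genes, 8586 were higher and 7626 lower in KO ameloblasts (median 0.04), and 8580 were higher and 7963 lower in KO stratum intermedium (median 0.02). The difference between layers was positive for 8 of the 9 and negative for 1 (median 0.96, against 0.01 over all genes). In each of the 3 comparisons 0 passed in limma and 0 had an unadjusted p under 0.05. Log2 differences in ameloblasts were 0.25 (SE 0.72) for Amelx, 0.44 (SE 0.71) for Ambn, 0.32 (SE 1.02) for Enam and 0.49 (SE 0.51) for Mmp20. Those in the stratum intermedium were -1.08 (SE 0.77) for Amelx, -0.41 (SE 0.61) for Ambn, -1.30 (SE 0.94) for Enam and -0.86 (SE 0.71) for Mmp20. The smallest p-values by direction belonged to Fam20a, a pseudokinase of the secretory pathway (0.34, SE 0.33), and Fam83h, a keratin-associated protein (-0.36, SE 0.46), in ameloblasts, and to Fam83h (0.04, SE 0.57) and the transcription factor gene Sp6 (-0.65, SE 0.34) in the stratum intermedium. Amelx was listed at 1704036, 691203 and 387348 normalized counts in the KO1, KO3 and KO9 ameloblast libraries, against 905195 and 460452 in WT10 and WT5. WT10, with the second highest Amelx, had the second lowest Odam, and WT5, with the second lowest Amelx, had an Odam level close to those of KO1 and KO3.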

How the data were processed

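PolyA RNA from laser captures was made into stranded libraries, per the labels. The authors deposited a signal per gene and library: normalized counts, scaled within each layer's table on its own, in matrices whose names point to DESeq2. The submitters' processing notes name GRCm38 and list STAR 2.5.2b, featureCounts, DESeq, FastQC and Picard 2.8.1, with no settings. The table names give Ensembl release 101 and say that outliers were left out. Values summed to between 21006977 and 26856177 per library. Whole reads could not be recovered: at the best common step, 33.2% to 60% of values under 20 lay within 0.05 of a step. Depth is therefore unknown, no counting interval was given, and no count test was run. Columns were matched to samples by library name, with 0 left unused.

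KO minus WT was fitted within each layer to log2(normalized count + 1), keeping genes that averaged 10 or more, by two-sided moderated tests with a variance trend (limma 3.58.1, R 4.3.3) and Benjamini-Hochberg adjustment; the fit was tested on simulated data. The difference between layers was fitted on the ameloblast minus stratum intermedium value of each prefix. There the variance trend ran over a gene's mean difference between layers and not over its abundance. SEs in that fit were large for genes with a large layer difference, such as Amelx (4.74) and Enam (4.42). Same-prefix libraries of both layers deviated together (r = 0.201 to 0.311 over genes). Exon lengths and positions came from GENCODE M21 (GRCm38), and promoters from RefSeq (GRCm38.p6). The members and lists were chosen with earlier results of these data known. Named genes were all members, Cldn10, Amelx, Ambn, Enam, Mmp20, the gene of each other list with the smallest p in each direction, and the 5 nearest profiles; 1 gene that this rule names is not reported here. Marker lists were ameloblast, stratum intermedium, odontoblast, osteoclast, osteoblast, red blood cell, skeletal muscle, and oral and gingival epithelium. Alternatives changed the pseudocount (0.5 or 8), the filter (none, or a mean of 50, which removes Klk4, Wdr72 and Slc24a4) and the scaling (quantile normalization, median-ratio rescaling); others used robust variance, no variance trend, library weights, blocks, sex as a covariate and leaving out libraries. Figures used matplotlib 3.10.9.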

Additional observations from a re-analysis of the deposited data

How the results depend on the processing

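No member of the maturation genes passed an adjusted p of 0.05 in limma under any alternative that kept both WT libraries, in either layer or between layers. The other maturation and the secretory genes gave 0 calls likewise. Of all genes tested, 0 were called in those runs too, so the result is not particular to the members. Directions were less stable. Replicate numbers in the titles paired KO with WT libraries only in name (correlation of deviations -0.186 to 0.086 over genes); with the replicate block, which made 0 calls, Odam in ameloblasts was -0.16, and in the stratum intermedium Ambn was 0.19 and Fam83h -0.12. For library groups 1 and 2, the same correlation of KO with WT was 0.273 and 0.116 in ameloblasts and 0.186 and 0.006 in the stratum intermedium. Deviations of the 2 WT libraries mirror each other, so these correlations are not independent. With library group as a block, ameloblast values were -0.23 for Odam, -0.32 for Amelx, -0.26 for Ambn and -0.75 for Enam. Stratum intermedium values were then -0.65 for Odam and 0.0669 for Wdr72. With sex, read from Xist and Y-linked genes, as a covariate, the fit sets KO9, the one KO sample of the WT sex, against WT. The difference was then -2.01 for Odam, -0.74 for Amelx, -0.64 for Ambn, -1.47 for Enam, -0.24 for Mmp20 and 0.0763 for Fam83h in ameloblasts, where Klk4 stood at -4.55 (SE 1.36), Wdr72 at -4.97 (SE 1.36) and Amtn at -1.37, with no call. In the stratum intermedium it was -0.74 for Odam, -0.0494 for Amtn, 0.19 for Slc24a4, 0.48 for Wdr72 and -4.48 for Klk4, and between layers it was -0.0755 for Klk4, -1.28 for Odam and -5.46 for Wdr72. Klk4 in ameloblasts was 0.14 at a pseudocount of 8 and 0.57 with library weights, which put Odam at -0.31 in the stratum intermedium. Without library group 1, chosen after seeing the data for its oral keratin RNA, Amtn was 0.99, Amelx -0.16, Mmp20 -0.0589 and Fam20a -0.17 in ameloblasts, and Odam was -0.49 and Fam83h -0.76 in the stratum intermedium. The cause of these turns was not tested.

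Leaving out 1 library at a time gave ameloblast ranges of -1.07 to 1.89 for Odam, -1.41 to 0.79 for Amtn, -1.68 to 1.48 for Klk4, -2.86 to -0.66 for Wdr72 (the highest without KO9), -0.32 to 0.75 for Amelx, -0.26 to 0.98 for Ambn, -0.75 to 1.21 for Enam, -0.0753 to 1.06 for Mmp20, -0.12 to 0.80 for Fam20a and -0.84 to 0.11 for Fam83h. Stratum intermedium ranges were -0.79 to 0.86 for Odam, 0.53 to 1.62 for Amtn, -2.93 to -0.67 for Klk4, -3.03 to -0.51 for Slc24a4, -2.64 to 0.0669 for Wdr72, -0.92 to 0.19 for Ambn and -0.76 to 0.84 for Fam83h. Between layers they were -1.93 to 2.68 for Odam, -3.005 to 0.26 for Amtn, -2.92 to 1.98 for Wdr72 and -0.0497 to 1.74 for Ambn.

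The balance of maturation over secretory genes depends by construction on the genes entered. Ameloblast means for KO and WT were -10.7 and -9.74 against Amelx, Ambn, Enam and Mmp20, and -14.8 and -13.9 against Amelx alone, added after seeing the data. Stratum intermedium means were -6.77 and -7.07, and -10.5 and -10.9. There the KO mean was -3.85 at a pseudocount of 8, -3.73 without Klk4, -6.02 without Odam and -5.03 without Amtn, and the WT mean was -5.78 without Odam. Leaving out libraries gave -8.06 to -6.52 for KO and -8.09 to -5.01 for WT ameloblasts, and -4.52 to -4.18 for KO and -4.81 to -3.92 for WT stratum intermedium.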
